A study of Mus musculus with 19 samples.

Results

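The 34 genes described here encode proteins of homologous recombination and of the Fanconi anemia pathway, and they were read from a table of 29861 gene rows by their symbols. All 34 were found, and all 34 passed the filter on low values, a TPM of at least 1 in at least 6 of 19 lines, that left 12500 genes to be tested. TPM is a transcript abundance per unit of transcript length, scaled so that every library has the same sum. The lines are organoids, epithelial cultures embedded in Matrigel, that were grown from ductal cells of C57B6/J mice. The 6 tumor lines came from pancreatic adenocarcinomas of mice that carried Pdx1-Cre, which drives Cre recombinase in the pancreatic lineage, and a Cre-activated Trp53 R172H allele. The 6 PanIN lines came from ducts of Pdx1-Cre mice whose pancreas held pancreatic intraepithelial neoplasia, a precursor lesion of ductal adenocarcinoma, and the 7 normal lines were started from pancreatic ducts of wild-type mice with normal histology. The growth medium, which held R-spondin, noggin, EGF, gastrin, FGF-10 and A83-01 (an inhibitor of TGF-beta receptors), was the same for all lines. The labels give no mouse age, treatment or passage, and they do not say whether lines shared a mouse or litter, so the p-values measure the spread between lines.

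Homologous recombination repairs a DNA double-strand break, or rescues a stalled replication fork, by copying the intact sister chromatid. The broken ends are first resected to single strands, BRCA1 and BRCA2 with their partners then prepare these strands to invade the sister duplex, and helicases and nucleases resolve the joined molecules. The Fanconi proteins deal with crosslinks between the DNA strands: a core complex adds ubiquitin to FANCD2 and FANCI, which recruits nucleases and hands the break over to recombination. Because a sister chromatid exists only after replication, many of these genes are transcribed mainly in the S and G2 phases of the cell cycle. Inherited mutations of BRCA2, PALB2 and other genes of this pathway are known in human pancreatic cancer.

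The libraries were alike in breadth, with 11938 to 12437 genes at a TPM of 1 or more, while the number of reads behind a value is unknown because TPM keeps no depth. All 10 ductal markers were tested, and their summed TPM ran from 7320 to 9220 in tumor lines, 7820 to 12300 in PanIN lines and 10200 to 15400 in normal lines. Of the markers of other cells, 1 of 10 acinar genes (Cela1) and 2 of 8 immune genes (Cd68 and Csf1r) passed the filter, and none of the endocrine, fibroblast or endothelial markers did. The immune markers summed to 1.49 to 3.94 TPM in tumor lines, 2.75 to 3.65 TPM in PanIN lines and 4.41 to 8.28 TPM in normal lines. Summed over each list, fibroblast markers stayed at or below 0.23 TPM, endothelial markers at or below 0.27 TPM, endocrine markers at or below 0.32 TPM and acinar markers at or below 2.66 TPM in every line. Trp53 RNA averaged 69.8 ± 10.2 TPM in tumor lines, 62.0 ± 12.5 TPM in PanIN lines and 67.7 ± 8.44 TPM in normal lines (SD, n = 6, 6 and 7), and such levels cannot show a point mutation. The part of these marker differences in the results was not tested. In bulk RNA, fewer cells of a type and less RNA per cell cannot be told apart.

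Expression of the 34 genes was low to moderate and spread over a wide range of levels. Averaged over the 19 lines, Topbp1, which activates the checkpoint kinase ATR, had the highest level at 61.8 TPM, ahead of Rbbp8 at 35.5 TPM. Fancg and Rad51c were lowest, at 2.32 and 2.37 TPM. The ratio of the highest to the lowest line was 4.92 for Eme1, 4.57 for Bard1 and 3.85 for Xrcc2, but 1.37 for Mus81, 1.5 for Fancl and 1.52 for Fance. A single normal line, normal 11, held the lowest value of 19 of the 34 genes. The highest values were mostly in tumor 8 (14 genes), tumor 5 (8 genes) and tumor 9 (8 genes).

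The genes moved together from line to line. Each line was summarised by the mean of log2(TPM + 1) over the 34 genes, centred on the 19 lines. Tumor 8 stood at 0.47, tumor 9 at 0.43, tumor 5 at 0.36 and tumor 7 at 0.27, while tumor 3 stood at 0.07 and tumor 4 at -0.18. PanIN 6 stood at 0.27, level with tumor 7 and below tumor 5, 8 and 9, and the other 5 PanIN lines lay between -0.36 and -0.14. Of the 7 normal lines, 6 lay between -0.12 and 0.10, and normal 11 was the lowest of all lines at -0.48. In tumor 8, 33 of the 34 genes lay above their own 19-line mean, against 4 of 34 in tumor 4, 31 of 34 in PanIN 6, 1 of 34 in PanIN 1 and 4 of 34 in normal 11. The groups therefore overlapped, with tumor 4 placed among the PanIN lines and PanIN 6 placed among the tumor lines. The 11 expressed rows without the authors' comparison took 16.3% of the TPM in tumor 5 and 28.6% in normal 11. A smaller share raises the TPM of all other rows in a line, and its part in this order was not tested.

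**Figure D1:**
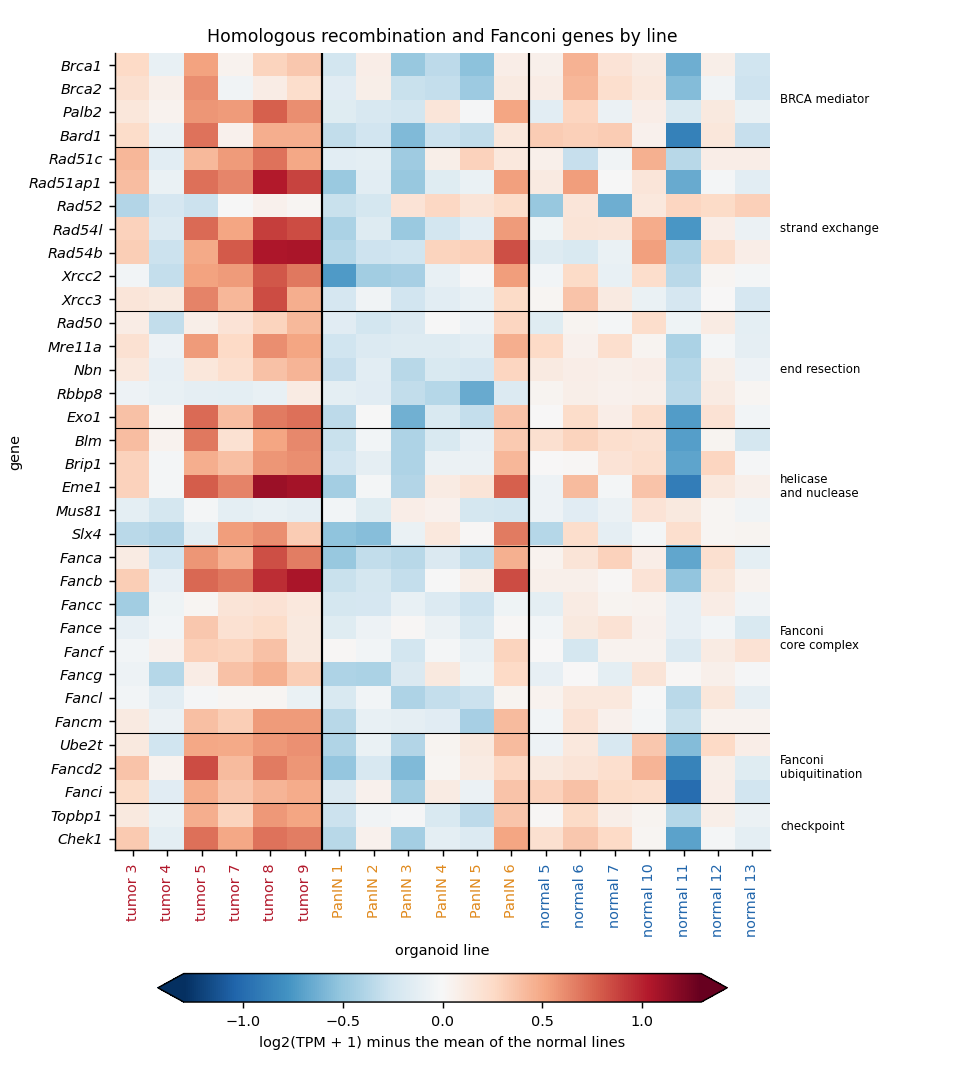
Each cell is the log2(TPM + 1) of a gene (rows, ordered by role) in a line (columns, tumor, PanIN and normal from left to right) minus the mean of the 7 normal lines. Tumor 5, 7, 8 and 9 and PanIN 6 are mostly red, normal 11 and PanIN 1 and 3 are mostly blue, and tumor 4 differs from the other tumor lines.

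The line order of the 34 genes was close to that of DNA replication genes. A list of 43 replication genes, which holds MCM helicase subunits, DNA polymerases, clamp loaders and nucleotide synthesis enzymes and no gene of the 34, was averaged in the same way. Normal 11 was lowest on both means, at -0.48 for the 34 genes and -0.78 for the replication genes. Tumor 8 stood at 0.47 and 0.67, tumor 5 at 0.36 and 0.69, and PanIN 6 at 0.27 and 0.38. Over the 19 lines, 15 of the 34 genes had a Pearson r of 0.9 or more with the replication mean, 14 had an r between 0.5 and 0.9, and 5 had an r below 0.5, with a median of 0.88. The r of all tested genes was not computed, so these counts have no background share beside them. Chek1, the S-phase checkpoint kinase CHK1, was closest, with r = 0.984 and Spearman's rho = 0.981 (permutation p = 1e-05 for each, the smallest that 100000 permutations can give, and 1.7e-05 and 2e-05 after Benjamini-Hochberg adjustment over the 34 relations computed for each coefficient). Mre11a (r = 0.968), Blm (0.960), Rad54l (0.954), Exo1 (0.953) and Rad51ap1 (0.952) came next.

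Over the 19 lines, 5 genes had an r below 0.5 with the replication mean. Mus81, the catalytic subunit of a structure-specific endonuclease, had r = -0.385 and rho = -0.348 (permutation p = 0.103 and 0.144, adjusted p = 0.107 and 0.148). Rad52, which anneals single strands, had r = -0.273 and rho = -0.419 (permutation p = 0.258 and 0.0754, adjusted p = 0.258 and 0.0801). Slx4, a nuclease scaffold, had r = 0.392, Rbbp8 had r = 0.402 and the core complex gene Fancc had r = 0.459. Some of these values changed with the lines used. Slx4 had r = 0.634 without normal 11 and tumor 5, the 2 lines farthest from the median of the replication mean. Within normal lines Rbbp8 had r = 0.889 and Slx4 r = -0.523, and within tumor lines Mus81 had r = 0.898. Without normal 11 and tumor 5 the median r of the 34 genes was 0.867, and Chek1 kept r = 0.978. The median r was 0.9 within tumor lines, 0.856 within PanIN lines and 0.846 within normal lines. The points share their libraries and the TPM scale, so these values describe how the lines are ordered.

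**Figure D2:**
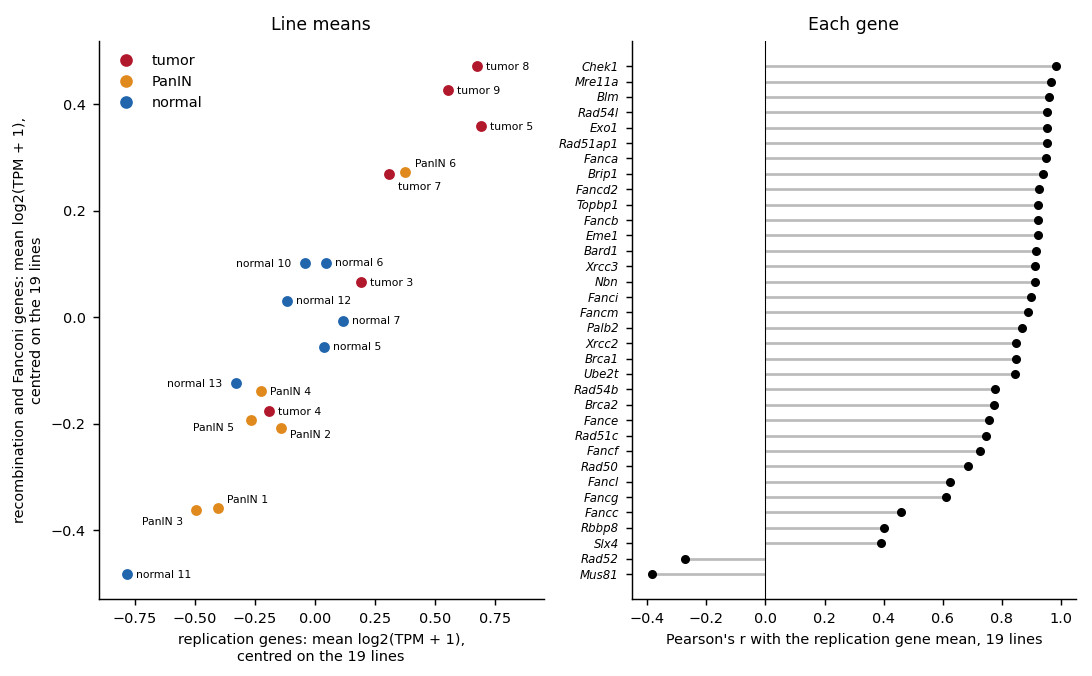
Left, each point is a line, placed by its centred mean log2(TPM + 1) over the 43 replication genes (x axis) and over the 34 recombination and Fanconi genes (y axis), with tumor lines in red, PanIN lines in orange and normal lines in blue. Right, Pearson's r of each gene with the replication mean over the 19 lines, from 0.984 for Chek1 to -0.385 for Mus81; 32 of the 34 genes have an r above 0.

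Promoter letters were looked up because genes of this kind that move together with replication are known to share binding sites of E2F factors, of the CCAAT-binding factor NF-Y and, as the CHR element, of the DREAM complex. RefSeq promoters of build GRCm38.p6, from 250 bases before to 50 bases after the transcription start, were given for 27 of the 34 genes, all but Xrcc2, Rad50, Fancd2, Rad54b, Exo1, Rbbp8 and Nbn. The E2F letters searched were TTTCCCGC, TTTGGCGC, TTTCGCGC and TTTGCCGC, the CHR letters TTTGAA and TTCGAA, and the NF-Y letters CCAAT, all on both strands, and no matches overlapped in these promoters. E2F letters were present for 5 of the 27 genes (18.5%): Bard1, Fancg, Brca2, Topbp1 and Rad51c. The share was 40% of the 35 replication genes with a promoter and 4.96% of the 8228 tested genes with one. CCAAT was present for 16 of the 27 genes (59.3%), against 57.1% of the replication genes and 43.7% of the tested genes. CHR letters were present for 2 of the 27 (Bard1 and Eme1, 7.41%), against 22.9% of the replication genes and 16.1% of the tested genes. Xrcc3, with 6 CCAAT matches, had more than any other promoter of the set. The following sequences show Xrcc3, the gene with the smallest p in the tumor comparisons, then Brca2, Bard1 and Topbp1 with an E2F match each, then Chek1 and Mus81, the ends of the order by r. They run 5′ to 3′ on the gene's strand from GRCm38.p6, and capitals mark E2F and CCAAT letters on either strand.
Xrcc3, chr12:111813830-111814129, minus strand: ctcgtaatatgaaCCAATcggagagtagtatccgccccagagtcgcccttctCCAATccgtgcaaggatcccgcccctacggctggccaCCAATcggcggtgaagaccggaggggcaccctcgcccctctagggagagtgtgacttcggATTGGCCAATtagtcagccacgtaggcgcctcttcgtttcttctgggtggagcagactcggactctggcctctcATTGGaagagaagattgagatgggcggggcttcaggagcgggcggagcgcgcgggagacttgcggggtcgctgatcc
Brca2, chr5:150522371-150522670, plus strand: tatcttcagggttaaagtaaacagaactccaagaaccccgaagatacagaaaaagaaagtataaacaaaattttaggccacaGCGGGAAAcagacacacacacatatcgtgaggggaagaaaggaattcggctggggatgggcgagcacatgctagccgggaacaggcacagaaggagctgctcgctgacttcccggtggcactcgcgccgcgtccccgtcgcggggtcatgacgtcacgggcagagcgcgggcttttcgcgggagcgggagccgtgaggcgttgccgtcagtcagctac
Bard1, chr1:71102923-71103222, minus strand: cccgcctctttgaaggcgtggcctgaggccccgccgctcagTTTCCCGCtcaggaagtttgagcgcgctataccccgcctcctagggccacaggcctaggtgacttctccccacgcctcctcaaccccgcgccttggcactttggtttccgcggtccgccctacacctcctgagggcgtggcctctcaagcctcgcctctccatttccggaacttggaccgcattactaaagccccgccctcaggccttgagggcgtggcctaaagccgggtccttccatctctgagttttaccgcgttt
Topbp1, chr9:103305077-103305376, plus strand: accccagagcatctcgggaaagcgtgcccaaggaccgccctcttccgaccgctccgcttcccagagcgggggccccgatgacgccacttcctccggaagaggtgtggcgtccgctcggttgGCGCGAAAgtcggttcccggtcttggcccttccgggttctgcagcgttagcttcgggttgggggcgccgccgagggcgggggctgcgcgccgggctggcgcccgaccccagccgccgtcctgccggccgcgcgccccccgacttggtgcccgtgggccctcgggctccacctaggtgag
Chek1, chr9:36726609-36726908, minus strand: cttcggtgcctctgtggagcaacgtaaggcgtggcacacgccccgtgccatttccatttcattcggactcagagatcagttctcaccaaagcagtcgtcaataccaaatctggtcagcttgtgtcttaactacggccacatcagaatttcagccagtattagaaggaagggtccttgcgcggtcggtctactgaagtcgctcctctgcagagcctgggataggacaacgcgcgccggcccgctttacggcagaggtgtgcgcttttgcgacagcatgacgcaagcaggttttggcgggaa
Mus81, chr19:5488330-5488629, minus strand: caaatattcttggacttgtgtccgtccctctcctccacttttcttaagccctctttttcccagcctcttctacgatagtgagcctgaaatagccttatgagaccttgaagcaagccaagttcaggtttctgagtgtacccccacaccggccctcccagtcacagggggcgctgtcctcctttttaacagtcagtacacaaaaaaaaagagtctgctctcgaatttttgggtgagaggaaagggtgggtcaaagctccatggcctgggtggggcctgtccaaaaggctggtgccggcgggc
Counted from the start that the promoter entry uses, the E2F match began at base -168 in Brca2, -209 in Bard1 and -129 in Topbp1. The 6 CCAAT matches of Xrcc3 began between -237 and -27. The annotated spans of Brca2 and Topbp1 begin earlier, at bases 150522297 and 103305167, so their E2F matches lie inside the annotated genes. Chek1 and Mus81, at opposite ends of the order by r, both lacked E2F and CCAAT letters in this window. The Chek1 window ends in gcgggaa, a single letter short of a searched E2F form, so a match that crosses its edge would not be counted. These matches are descriptions of letters, not of bound factors.

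Tumor lines against normal lines was the comparison with the most called genes. Called means an adjusted p below 0.05 with limma on log2(TPM + 1), adjusted over all 12500 genes. Of the 34 genes, 7 rose in tumor lines (Eme1, Exo1, Fancb, Palb2, Rad51ap1, Rad51c and Xrcc3) and none fell. A log2 change above 0 was found for 29 of the 34 (85.3%) and for 55.7% of all tested genes. Over all tested genes 17.8% rose and 14.4% fell, so the 20.6% of the set that rose is near the background share. The median log2 change was 0.33 for the 34 genes and 0.04 for all tested genes, and 17 of the 34 (50%) had an unadjusted p below 0.05, near the 44% of all tested genes. No gene of the set separated the groups in either direction: 2.9% of all tested genes were higher in every tumor line than in every normal line, and 4.36% were lower in every one.

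Among the BRCA1 and BRCA2 partners, Palb2, which bridges the 2 proteins at breaks, rose in tumor lines. Its lowest, median and highest values were 3.37, 5.24 and 6.22 TPM in tumor lines and 2.69, 3.01 and 4.14 TPM in normal lines. Tumor 3 and 4 lay within the normal range and the other 4 tumor lines lay above it. The log2 change was 0.45 ± 0.136 (SE), a 1.37-fold difference on the TPM + 1 scale (adjusted p = 0.0182). Brca2, a mediator of strand exchange, had 4.59, 5.39 and 7.72 TPM in tumor lines and 2.88, 5.16 and 6.76 TPM in normal lines, with a log2 change of 0.19 ± 0.145 (adjusted p = 0.319). Brca1, a ubiquitin ligase that promotes resection, had 12.1, 15.9 and 19.1 TPM in tumor lines and 7.96, 13.7 and 18.2 TPM in normal lines (log2 change 0.23 ± 0.153, adjusted p = 0.253). For both genes normal 6 exceeded 5 of the 6 tumor lines. Bard1, the partner of BRCA1, had a log2 change of 0.31 ± 0.182 (adjusted p = 0.192).

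Of the 7 strand exchange genes, 3 rose. Xrcc3, which is needed for strand exchange and for resistance to crosslinks, had 3.53, 4.66 and 6.47 TPM in tumor lines (lowest, median, highest) and 2.55, 3.17 and 4.35 TPM in normal lines. Tumor 5, 7, 8 and 9 exceeded all normal lines, and tumor 3 and 4 did not. The log2 change was 0.45 ± 0.125 (1.36-fold, adjusted p = 0.0122), the smallest adjusted p of the set. Rad51c had 1.76, 3.19 and 3.93 TPM in tumor lines and 1.36, 2.16 and 3.18 TPM in normal lines, with a log2 change of 0.41 ± 0.15 (adjusted p = 0.0423). Tumor 4 was the low tumor line for this gene. Rad51ap1, which stimulates strand invasion, had 11.3, 19.9 and 25.7 TPM in tumor lines and 7.34, 12.02 and 18.02 TPM in normal lines, with a log2 change of 0.59 ± 0.195 (1.51-fold, adjusted p = 0.0269). The motor proteins Rad54l and Rad54b had log2 changes of 0.52 ± 0.200 and 0.58 ± 0.223 (adjusted p = 0.053 and 0.0538), and Xrcc2, which acts in the same step, had 0.37 ± 0.195 (adjusted p = 0.152). Rad52 was at 5.36, 6.67 and 7.57 TPM in tumor lines and 4.32, 8.19 and 9.2 TPM in normal lines (log2 change -0.13 ± 0.156, adjusted p = 0.537).

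Of the 5 end resection genes, Exo1 alone passed the test. This nuclease, which extends resection, had 9.85, 14.5 and 16.7 TPM in tumor lines and 5.45, 10.3 and 11.6 TPM in normal lines. All tumor lines but tumor 4 lay above every normal line. The log2 change was 0.49 ± 0.167 (1.4-fold, adjusted p = 0.0318). The 3 subunits of the break sensor, Mre11a, Rad50 and Nbn, had log2 changes of 0.34 ± 0.132, 0.12 ± 0.106 and 0.20 ± 0.108 (adjusted p = 0.0527, 0.39 and 0.159). Rbbp8, which encodes CtIP, the cofactor that starts resection, had 35.1, 35.6 and 41.3 TPM in tumor lines and 29.7, 39.7 and 41.2 TPM in normal lines (log2 change -0.07 ± 0.0874, adjusted p = 0.586).

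Of the 5 helicase and nuclease genes, Eme1, the partner of MUS81 in an endonuclease for branched DNA, had the largest log2 change of the set. It had 7.05, 12.5 and 16.8 TPM in tumor lines and 3.41, 7.6 and 9.94 TPM in normal lines, with tumor 3 and 4 inside the normal range and normal 11 the lowest line. The log2 change was 0.65 ± 0.227 (1.57-fold, adjusted p = 0.0356). Its catalytic partner Mus81 had 9.92, 10.8 and 11.6 TPM in tumor lines and 10.5, 11.45 and 13.5 TPM in normal lines (log2 change -0.12 ± 0.0725, adjusted p = 0.209). The subunits of this enzyme thus had log2 changes of opposite sign, though only that of Eme1 passed the test and the difference between them was not tested. The helicases Blm and Brip1 had log2 changes of 0.41 ± 0.157 and 0.39 ± 0.15 (adjusted p = 0.0509 and 0.0538), and Slx4 had 0.10 ± 0.198 (adjusted p = 0.718).

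Of the 8 Fanconi core complex genes, Fancb, an X-linked subunit of the catalytic module, alone rose. It had 7.6, 14.2 and 18.3 TPM in tumor lines and 5.47, 8.68 and 9.43 TPM in normal lines, with tumor 4 as the only tumor line inside the normal range. The log2 change was 0.61 ± 0.194 (1.52-fold, adjusted p = 0.0229). Its module partner Fancl, the ubiquitin ligase, had 14.9, 16.2 and 16.8 TPM in tumor lines and 12.8, 17.1 and 18.4 TPM in normal lines (log2 change -0.04 ± 0.0864, adjusted p = 0.752). The other 6 core genes had log2 changes of 0.40 (Fanca) or less, none of them called. Fancm, a translocase that anchors the complex to DNA, had 0.31 ± 0.128 (adjusted p = 0.071), and Fance, Fancf and Fancg had 0.13, 0.19 and 0.14 (adjusted p = 0.228, 0.135 and 0.443).

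The targets of the core complex did not pass the test. Fancd2 had 8.86, 12.5 and 16.3 TPM in tumor lines and 4.25, 9.43 and 11.96 TPM in normal lines, with a log2 change of 0.49 ± 0.186 and an adjusted p of 0.05, just above the threshold before rounding. Fanci had a log2 change of 0.31 ± 0.187 (adjusted p = 0.209) and Ube2t, the E2 enzyme that ubiquitinates both, had 0.34 ± 0.166 (adjusted p = 0.124). Chek1 had 8.15, 14.0 and 15.4 TPM in tumor lines and 5.17, 9.21 and 11.8 TPM in normal lines, with a log2 change of 0.47 ± 0.178 (adjusted p = 0.0505). Topbp1 had 54.5, 75.5 and 85.6 TPM in tumor lines and 44.2, 59.3 and 68.9 TPM in normal lines (log2 change 0.31 ± 0.123, adjusted p = 0.0574). For Chek1 and Topbp1, tumor 3 and 4 lay inside the normal range.

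**Figure D3:**
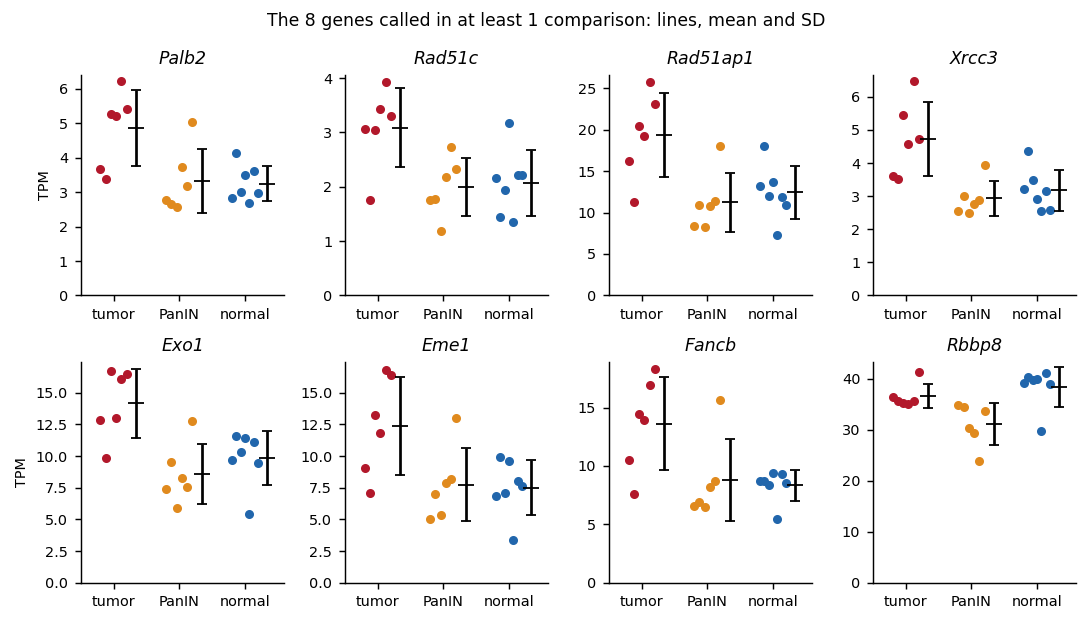
TPM of the 8 genes called in at least 1 comparison, each point a line, with tumor, PanIN and normal lines from left to right and black bars for the mean ± SD (n = 6, 6 and 7). Tumor lines reach higher than normal lines for the first 7 genes but overlap them, and for Rbbp8 the PanIN lines, at 23.9 to 34.9 TPM, all lie below the tumor lines.

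The count of 7 depended on single lines. It was 19 without tumor 4, 16 without PanIN 6, 12 without normal 10 and 11 without normal 7, where 22.7%, 20%, 16.6% and 20.5% of all tested genes were called higher. It was 4 without normal 13, 3 without tumor 5, 2 without tumor 9, 2 without normal 11 and 1, Xrcc3, without tumor 8, where the share of all tested genes was 13.4%, 12.3%, 11.8%, 13.1% and 10.6%. Without normal 10 the count of the set was higher, and the share over all genes lower, than the 7 and 17.8% of the 19 lines. Xrcc3 stayed called without any single line (highest adjusted p = 0.0396), and Palb2 in 18 of 19 such fits (0.0558 without tumor 8). Fancb was called in 16 of the 19 and was lost without normal 11, tumor 8 or tumor 9. Rad51ap1 was called in 15, being lost without those lines or tumor 5, and Exo1 in 14, being lost without those 4 or normal 13. Eme1 was called in 12, being lost without normal 5, 11 or 13 or tumor 5, 7, 8 or 9. Rad51c was called in 8, those without normal 10, tumor 4 or any of the 6 PanIN lines.

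**Figure D4:**
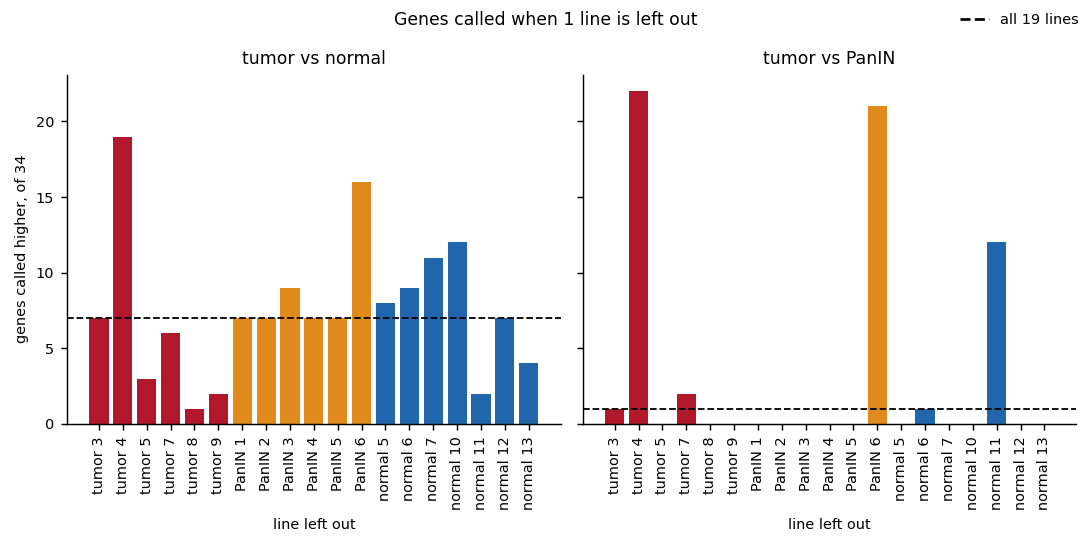
Bars give how many of the 34 genes were called higher when the line named below was left out, for tumor against normal lines (left) and tumor against PanIN lines (right), coloured by the group of that line (tumor red, PanIN orange, normal blue); the dashed line is the count with all 19 lines, 7 and 1. Leaving out tumor 4 gave 19 and 22 called genes, beside 22.7% and 13.3% of all tested genes, and leaving out PanIN 6 gave 16 and 21, beside 20% and 15.9%.

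The names of the table's columns carry library identifiers of 3 series, treated here as a possible batch. Within the first series the set's median log2 difference between tumor and normal lines was -0.19 (1 against 3 lines, the tumor line being tumor 4). It was 0.64 in the second series (3 against 2 lines, with normal 11 among the normal lines) and 0.35 in the third (2 against 2 lines). The replication genes had medians of -0.26, 0.94 and 0.60 in the same 3 series. For Xrcc3 the differences were -0.04, 0.79 and 0.42. With series as a covariate, 3 genes were called higher, Fancb, Palb2 and Xrcc3 (adjusted p = 0.0382, 0.0379 and 0.0238), and 15.8% of all tested genes were. The relation did not hold within the first series, and no test was run inside a series.

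The changes of the set went with those of the replication genes. Of the 43 replication genes, 32 (74.4%) rose in tumor lines and none fell, beside 17.8% and 14.4% of all tested genes. Their median log2 change was 0.51. Tk1, thymidine kinase, averaged 85.2 ± 21.1 TPM in tumor lines and 45.4 ± 13.9 TPM in normal lines (SD, n = 6 and 7, log2 change 0.93, adjusted p = 0.00463). With the replication mean as a covariate, none of the 34 genes was called between tumor and normal lines with limma, 1 had an unadjusted p below 0.05 (18.8% of all tested genes did), the median log2 change was -0.07, and 9 of 34 were above 0. In that fit Xrcc3 had a log2 change of 0.14 (adjusted p = 0.513) and Palb2 also 0.14 (adjusted p = 0.615). The replication mean itself differs between the groups, so its part in the result and that of the tumor state cannot be told apart.

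Other genes of the same and neighbouring pathways were taken from lists, and over all tested genes 17.8% rose and 14.4% fell. Among 38 tested further genes of recombination and crosslink repair, 8 rose (21.1%) and 1 fell (2.63%), with a median log2 change of 0.12. The share of this list that rose is near that of all tested genes. Recql4, a RecQ helicase, averaged 6.10 ± 1.89 TPM in tumor lines and 3.11 ± 0.603 TPM in normal lines (SD, n = 6 and 7; log2 change 0.75 ± 0.185, adjusted p = 0.006). Dna2, a resection nuclease, had a log2 change of 0.69 ± 0.177 (adjusted p = 0.00785), and Usp1, which removes ubiquitin from FANCD2, had 0.60 ± 0.173 (adjusted p = 0.0144). Among 19 damage checkpoint genes 2 rose (10.5%) and 1 fell (5.26%), both shares below those of all tested genes. The gene that fell was Trp53bp1, whose product 53BP1 opposes resection, at 12.4 ± 1.25 TPM in tumor lines and 17.3 ± 2.05 TPM in normal lines (log2 change -0.45 ± 0.0851, adjusted p = 0.00123). Among 14 end-joining genes 3 rose (21.4%), near the share of all tested genes. Dclre1c, which encodes the nuclease Artemis, led them with a log2 change of 0.90 ± 0.274 (adjusted p = 0.0189). Among 30 mismatch and excision repair genes 10 rose (33.3%) and 3 fell (10%). The nucleotide excision genes Cetn2, Xpc and Xpa made up the 3, with log2 changes of -0.32, -0.49 and -0.43 (adjusted p = 0.00269, 0.00541 and 0.00733). Of 32 mitosis genes 13 rose (40.6%) and none fell, with a median of 0.58. Of 19 E2F and DREAM regulators 7 rose (36.8%) and none fell. Among the 7 were E2f2 with a log2 change of 1.07 ± 0.245 (adjusted p = 0.00394) and Mybl2 with 1.01 ± 0.270 (adjusted p = 0.00939).

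**Figure D5:**
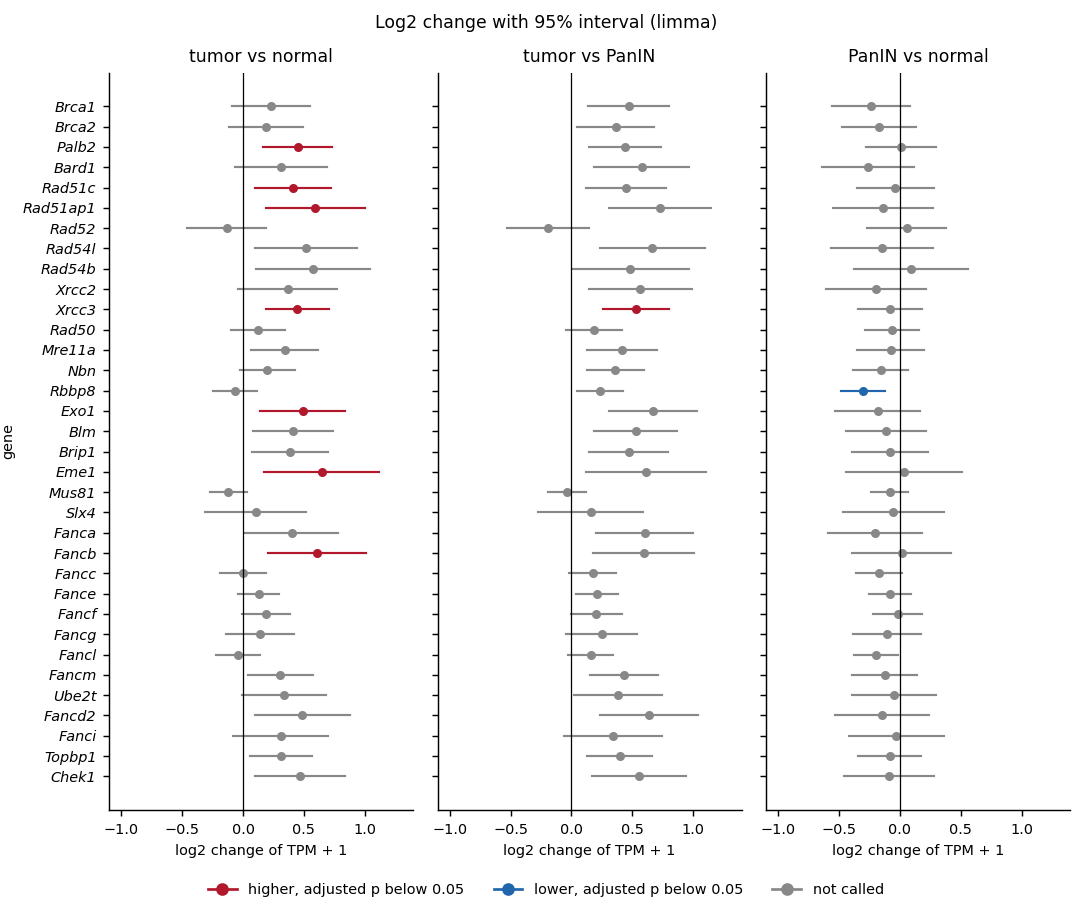
Log2 change of TPM + 1 for each of the 34 genes (points) with its 95% interval from limma (bars), for tumor against normal, tumor against PanIN and PanIN against normal lines from left to right; red marks genes called higher, blue genes called lower and grey the rest. Between tumor and PanIN lines 32 of 34 points lie above 0, yet Xrcc3 alone is called.

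Tumor lines against PanIN lines, which differ in tissue of origin and in whether the mice carried the Trp53 allele, gave a larger median change but a single called gene. Xrcc3 rose, with 3.53, 4.66 and 6.47 TPM in tumor lines and 2.49, 2.83 and 3.94 TPM in PanIN lines, a log2 change of 0.53 ± 0.129 (1.44-fold, adjusted p = 0.0474). Tumor 3 and 4 lay below PanIN 6 and above the other 5 PanIN lines. Over all tested genes 0.392% rose and 1.21% fell, against 1 and 0 of the 34. The median log2 change was 0.44 for the set and 0.06 for all tested genes, and 32 of 34 changes (94.1%) were above 0, against 60.7% of all tested genes. An unadjusted p below 0.05 was found for 25 of the 34 (73.5%) and 29.7% of all tested genes, and an adjusted p below 0.1 for 20 (58.8%) and 17.3%. The comparison shares its tumor lines with the one before, so its values stand beside the others and are not a second count.

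Several genes came close to the threshold between tumor and PanIN lines. Rad51ap1 had 11.3, 19.9 and 25.7 TPM in tumor lines and 8.28, 10.8 and 18 TPM in PanIN lines, with the largest log2 change of the set at 0.73 ± 0.202 (adjusted p = 0.0616). Exo1 had 9.85, 14.5 and 16.7 TPM in tumor lines and 5.92, 7.92 and 12.8 TPM in PanIN lines, with a log2 change of 0.67 ± 0.173 (adjusted p = 0.0533). For both, PanIN 6 was the highest PanIN line and overlapped the tumor lines. Rad54l (0.67 ± 0.207), Fancd2 (0.64 ± 0.193), Eme1 (0.62 ± 0.236), Fanca (0.60 ± 0.192) and Fancb (0.59 ± 0.201) had adjusted p from 0.0664 to 0.0992. Brca1 and Brca2 had log2 changes of 0.47 ± 0.159 and 0.36 ± 0.151 (adjusted p = 0.0755 and 0.117). Mus81 and Rad52 alone had changes below 0, at -0.04 ± 0.0753 and -0.19 ± 0.162 (adjusted p = 0.789 and 0.447).

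The single call rested on which lines were present. Xrcc3 was not called, and the count was 0, when any of 13 lines was left out: normal 5, 7, 10, 12 or 13, PanIN 1, 2, 3, 4 or 5, or tumor 5, 8 or 9. The count was 2 without tumor 7 and 1 without tumor 3 or normal 6. It was 22 without tumor 4, 21 without PanIN 6 and 12 without normal 11. The share of all tested genes called higher also moved, to 13.3% without tumor 4, 15.9% without PanIN 6 and 4.14% without normal 11. The set's median difference was 0.13, 0.55 and 0.23 within the 3 series (1 against 3, 3 against 1 and 2 against 2 lines), and the replication genes had 0.14, 0.78 and 0.34. With the replication mean as a covariate the median was 0.03, no gene was called with limma and none had an unadjusted p below 0.05, against 3.86% of all tested genes. None of the 43 replication, 32 mitosis, 14 end-joining, 19 damage checkpoint and 19 E2F and DREAM genes was called in this comparison. Without the covariate, 43, 30, 4, 12 and 10 of them had an unadjusted p below 0.05, beside 29.7% of all tested genes. Of the 38 further recombination genes 1 rose and 1 fell (Helb and Rnf169), and of the 30 mismatch and excision repair genes 1 rose and 1 fell (Apex1 and Ercc5); these 4 were chosen after their values were seen.

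PanIN lines against normal lines gave no rise in the set and 1 fall, that of Rbbp8. Over all tested genes 3.1% rose and 3.68% fell, so 1 of 34 (2.94%) lower is near the background. Rbbp8 had 23.9, 32.0 and 34.9 TPM in PanIN lines and 29.7, 39.7 and 41.2 TPM in normal lines. The 6 normal lines other than normal 11 all lay above every PanIN line, at 38.95 TPM or more, and normal 11 lay among the PanIN lines. The log2 change was -0.30 ± 0.0874, a 0.812-fold level on the TPM + 1 scale (adjusted p = 0.0428). The call was lost in 11 of 19 fits that left out a line, namely normal 5, 6, 7, 10, 12 or 13, PanIN 3, 4 or 5, or tumor 3 or 8, with a highest adjusted p of 0.111 without PanIN 5. Within the 3 series the difference was -0.25, -0.22 and -0.49 (3 against 3, 1 against 2 and 2 against 2 lines), and with the replication mean as a covariate it was -0.29 (adjusted p = 0.0231).

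Rbbp8 was also the only gene of the set that separated tumor from PanIN lines: all 6 tumor lines, at 35.1 to 41.3 TPM, lay above all 6 PanIN lines, at 23.9 to 34.9 TPM. Of all tested genes 0.832% were higher in every tumor line than in every PanIN line and 0.968% were lower in every one. The gap between the nearest lines was small, and the log2 change of 0.24 ± 0.0907 did not pass the test (adjusted p = 0.101). The mean of Rbbp8 was lowest in PanIN lines and highest in normal lines, an order that Fancl shared. Between PanIN and normal lines no gene of the set separated the groups, against 1.26% of tested genes that were higher in every PanIN line and 1.79% that were lower in every one.

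The other 33 genes differed little between PanIN and normal lines. The median log2 change of all 34 was -0.09, against -0.03 for all tested genes, 29 of 34 (85.3%) were below 0, against 57.4% of all tested genes, and 2 (5.88%) had an unadjusted p below 0.05, against 19%. Palb2 had 2.57, 2.98 and 5.03 TPM in PanIN lines and 2.69, 3.01 and 4.14 TPM in normal lines (log2 change 0.01 ± 0.136, adjusted p = 0.987). Brca2 had 3.16, 3.94 and 5.22 TPM in PanIN lines and 2.88, 5.16 and 6.76 TPM in normal lines (log2 change -0.17 ± 0.145, adjusted p = 0.59). Fancl had the next smallest p, with 12.3, 13.9 and 16.9 TPM in PanIN lines and 12.8, 17.1 and 18.4 TPM in normal lines (log2 change -0.20 ± 0.0864, adjusted p = 0.208). The set's median difference was -0.33 within the first series, 0.04 within the second and 0.09 within the third, where PanIN 6 was 1 of 2 PanIN lines. None of the replication or mitosis genes was called between these groups, and none of either list had an unadjusted p below 0.05. Of the other lists, Rev1 of the further recombination genes and Ercc5 of the excision repair genes rose in PanIN lines, both named after their values were seen, and no other list gene was called.

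The authors' deposited table gives its own test of each comparison, which per the file headers is DESeq output. In the authors' deposited table, 15 of the 34 genes passed an adjusted p of 0.05 between tumor and normal lines, all of them higher in tumor lines, against 16.2% of all genes with an adjusted p that were higher and 16.4% that were lower. The 15 included the 7 called here, and the other 8 were Rad54l, Rad54b, Mre11a, Blm, Fancm, Fancd2, Topbp1 and Chek1. In the authors' deposited table, 13 passed between tumor and PanIN lines, all higher in tumor lines, against a background of 5.1% higher and 6.55% lower. In the authors' deposited table Rbbp8 alone was lower in PanIN than in normal lines (log2 change -0.27, adjusted p = 0.014), against 5.53% higher and 4.94% lower overall. Signs of the changes were the same in both tests for 34, 34 and 32 of the 34 genes in the 3 comparisons. Brca1 and Brca2 were not called in any comparison of the authors' deposited table, with adjusted p of 0.351 and 0.495 between tumor and normal lines.

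Some values may hold reads of neighbouring genes. In the GENCODE M21 annotation of GRCm38, exons of Rad54b overlap those of another gene, Fsbp, on the same strand, and 11 genes of the set overlap a gene on the opposite strand: Brca2, Rad54l, Rad54b, Mre11a, Rbbp8, Eme1, Fanca, Fancl, Fancm, Fancd2 and Fanci. The library kit marks strand, per the labels' protocols, but no source used here says whether the counting used it, so reads of such partners may not have been kept apart.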

How the data were processed

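Per the submitters' processing notes, FastQC, RSEM 1.2.11, Bowtie 1.1.0, DESeq, DESeq2 1.4.1 and the mm9 build were among the tools and references; no source used here names the annotation. Per the labels' protocols, total RNA was depleted of ribosomal RNA and made into strand-marking libraries. The authors deposited 1 table with a TPM value per gene and line. The deposited table also holds, per the file headers, the authors' base mean (a signal averaged over lines), log2 fold change, test statistic (a score per gene), p-value and adjusted p-value for each comparison. No column belonged to other samples (0 columns).

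Tests were run with limma 3.58.1 (R 4.3.3) on log2(TPM + 1), with group means estimated from all 19 lines together. Contrasts were two-sided with eBayes (trend), and Benjamini-Hochberg adjustment covered the 12500 tested genes of each contrast. Folds on the TPM + 1 scale understate changes of genes with low values. The table holds no counts, so the planned count model was not used. The fit was tested on simulated data with noise drawn independently for each gene. The genes of the set move together, so that test cannot show how reliable their calls are. Alternatives were a pseudocount of 0.1, other filters (none, or a TPM of 5), 3 other scalings, 3 covariates (series, sex, replication mean), a block on line numbers, other variance models and leaving out each line.

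All 34 genes, Trp53 and up to 4 genes of each list with the smallest p between tumor and normal lines were named; others are said to lie outside this rule. The genes and lists were chosen with earlier results of these data known. Another allele of these mice and a further gene are not reported here. Tables were read in R (data.table, version 1.17.8), and correlations, promoter searches and figures were made in Python 3.11.15 with numpy 2.4.6 and matplotlib 3.10.9.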

Additional observations from a re-analysis of the deposited data

Results flagged for a closer look

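Within each group, a line was picked out when its gap to the nearest other line, on the log2(TPM + 1) scale, took up more of the group's range than Dixon's 95% critical value allows. The values below are TPM. Of 102 combinations of gene and group looked at, 14 were picked out, and chance picks out about 1 in 20 of independent ones. The genes move together from line to line, so the count of 14 cannot be weighed against that rate. They were on 4 lines.

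Tumor 4 was the low tumor line for Rad51c (1.76 TPM, next 3.04 TPM) and Fanci (10.42 TPM, next 14.03 TPM). Tumor 9 was the high tumor line for Rbbp8 (41.33 TPM, next 36.48 TPM). PanIN 6 was the high PanIN line for 5 genes: Rad54l at 15.42 TPM (next 9.19 TPM), Mre11a at 28.02 TPM (next 18.12 TPM), Nbn at 27.00 TPM (next 20.01 TPM), Fanca at 12.96 TPM (next 7.86 TPM) and Fancb at 15.67 TPM (next 8.73 TPM). Normal 11 was the low normal line for 6 genes: Nbn at 16.83 TPM (next 21.04 TPM), Rbbp8 at 29.68 TPM (next 38.95 TPM), Exo1 at 5.45 TPM (next 9.41 TPM), Brip1 at 6.19 TPM (next 10.44 TPM), Eme1 at 3.41 TPM (next 6.84 TPM) and Fancb at 5.47 TPM (next 8.33 TPM). The replication gene means of these lines were -0.19 in tumor 4, 0.55 in tumor 9, 0.38 in PanIN 6 and -0.78 in normal 11, and their part in these values was not tested.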

How the results depend on the processing

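No gene of the set changed sign between the reported fit and an alternative in which either fit called it. Between tumor and normal lines the 7 calls became 4 without a filter on low values, 15 with quantile normalization, 3 with series as a covariate, and 0 with the replication mean as a covariate or with the replicate block. The share of all tested genes called higher was 10.4%, 15.9%, 15.8%, 1.48% and 0.288% in these fits, against 17.8%. In the block fit a line whose number no other line has adds nothing to a comparison. Numbers 5 and 7 alone are held by both a tumor and a normal line. The block therefore rests on few lines, and its low counts cannot be set beside those of the other fits. Under the replication covariate and the block, calls among all genes were 487 and 225, against 4024. Replication genes went to 19 calls with series as a covariate and 0 under both of those fits, and mitosis genes to 7 (no filter), 7 (series), 8 (sex), 1 (replication covariate) and 0 (block). End-joining genes had 1 call with quantile normalization and with series, and 0 under the replication covariate and the block; damage checkpoint genes had 1 and 0 under these 2 fits, and the other recombination genes and the mismatch and excision repair genes 0. E2F and DREAM regulators had 4 without a filter, after rescaling without the 11 rows or with sex, and 0 under these 2 fits. The 11 expressed rows that lack the authors' comparison held 16.3% to 28.6% of a line's TPM. They held 16.3%, 18.2% and 21.1% in tumor 5, 8 and 9, and 25%, 25.4% and 22.3% in tumor 3, 4 and 7. The range was 22.6% (PanIN 6) to 27% in PanIN lines and 23.3% to 28.6% (normal 11) in normal lines. Rescaling without these rows left 4 genes of the set higher and made Mus81 lower, beside 11.4% and 19% of all tested genes. Of all calls 37.4% were higher instead of 55.1%. The median log2 change went from 0.325 to 0.256 for the set and from 0.04 to -0.04 for all genes.

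Between tumor and PanIN lines the single call became 2 under median-of-ratios scaling and quantile normalization and 0 with a pseudocount of 0.1, no filter, a filter at a TPM of 5, series, sex or replication covariates, only the 2 groups compared, or the block. Under some alternatives the other recombination genes had 1 call in place of 2 (0 under the replication covariate and the block) and so had the mismatch and excision repair genes, while mitosis, damage checkpoint and E2F and DREAM genes reached 1 under some scalings or with only the 2 groups compared. All-gene calls were 93 without a filter, 130 at a TPM of 5, 303 and 333 under the 2 scalings, 65 with series, 12 with the replication covariate, 97 with only the 2 groups and 8 with the block, against 200. Between PanIN and normal lines Rbbp8 was lost without a filter, with sex, with only the 2 groups compared or with the block; other lists moved between 0 and 3 calls, and all genes from 847 to 535 (TPM of 5), 1316 (replication covariate) and 258 (block). The block rests on few lines in these comparisons too, and the cause of the other moves was not tested.

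Leaving out each line gave, between tumor and normal lines, 1 to 19 calls in the set, 11 to 41 replication, 3 to 22 mitosis, 0 to 6 end-joining, 1 to 9 damage checkpoint, 3 to 14 other recombination, 7 to 16 mismatch and excision repair and 3 to 10 E2F and DREAM calls, and 2652 to 4856 of all genes. Between tumor and PanIN lines the ranges were 0 to 22, 0 to 41, 0 to 29, 0 to 5, 0 to 12, 1 to 14, 1 to 15, 0 to 11 and 51 to 2833 in the same order. Between PanIN and normal lines they were 0 to 1 in the set and damage checkpoint genes, 1 to 2 in the other recombination genes, and 495 to 894 of all genes. The labels do not say whether line numbers pair the lines. The 7 pairs with the same number correlated between -0.31 and 0.25 (median 0.07), 1 of them over 0.1. The 113 pairs with different numbers correlated between -0.73 and 0.61 (median -0.003), 35 of them over 0.1. These values cannot show whether lines shared a mouse or litter. TPM keeps no depth, so the TPM values do not give the counting error of low genes such as Rad51c and Fancg. The authors' base mean, an average over lines, was not used to judge it.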

Other observations

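Tumor lines were 3 female and 3 male, and normal lines 5 female and 2 male. An interaction of sex with the difference between tumor and normal lines was a test chosen after seeing the data. It was called with limma for none of the 34 genes (lowest adjusted p 0.205) and for 2 of all tested genes. An unadjusted p below 0.05 was found for 10 of the 34 genes, a larger share than the 13.6% of all tested genes. The genes move together from line to line, so the 10 cannot be weighed against that share. The test rests on 2 male normal lines. Tumor 3 and 4, with the lowest means of the 34 genes among tumor lines (0.07 and -0.18), were male, as was tumor 5 at 0.36. Normal 11, at -0.48, was female. The part of these lines in the result was not tested.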
